A study of Homo sapiens with 26 samples.

Results

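The genes described are 8 regulators of transcription elongation, HEXIM1, HEXIM2, MEPCE, LARP7, CDK9, CCNT1, CCNT2 and BRD2, out of 63086 genes counted per library. They were chosen by name, with the arsenite changes of these libraries already known, so their arsenite values are given as a description without a test. All 8 were found in the count tables and all 8 passed the filter on low counts that left 9099 protein-coding genes for testing (over 10 CPM in at least 12 of 24 libraries, CPM being the count relative to library size). HEXIM2 passed it only through its arsenite libraries, 12 of 12 of which exceeded the limit against none of the control libraries.

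RNA was sequenced from HCT116 cells, a human colorectal carcinoma line, in which both IGF2BP2 and IGF2BP3 had been disrupted and which produced mCherry-tagged IGF2BP1, an RNA-binding protein, from a lentivirus. The IGF2BP1 was wild type (WT), S181E, Y396E or RQ. S181E and Y396E put glutamate in place of a serine or tyrosine to mimic phosphorylation. RQ puts glutamine in place of arginines of the first disordered linker. In cells of another line the paper found S181 phosphorylated but no phosphorylated peptide covering Y396, which the kinase Src phosphorylated in vitro. Each population was given 500 µM sodium arsenite for 2 h, which causes oxidative and proteotoxic stress, or PBS, with 3 libraries per group from dishes grown separately. In addition 1 arsenite and 1 control library came from parental cells with neither disruption nor IGF2BP1 transgene, which the paper calls nonengineered. Its culture methods describe the HCT116 cells as a line that conditionally expresses OsTIR1. Each transgenic population was a pool sorted through a narrow mCherry gate on a background derived from single-cell clones, so differences between populations cannot be told apart from differences that arose while each was made, and in bulk RNA fewer cells with a transcript and less of it per cell cannot be told apart either.

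CDK9 and a cyclin T, encoded by CCNT1 or CCNT2, form P-TEFb, the kinase that releases paused RNA polymerase II into productive elongation. HEXIM1 or HEXIM2 inhibits the kinase when bound to the small nuclear RNA 7SK, which MEPCE caps with a methyl group and LARP7 protects at its 3′ end. BRD2 belongs to the BET family, whose bromodomains read acetylated histones at active genes, and a rise of HEXIM1 RNA is used as a marker of BET inhibitor action.

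Promoter sequences of 3 members are shown, those of HEXIM1 and BRD2, both of which were higher after arsenite in each population, and of CCNT1, which was not. They are RefSeq sequences of GRCh38.p14 from 250 bases before to 30 bases from the annotated start, printed in the direction of transcription. HEXIM1 lies at chr17:45148225-45148504 (+ strand), BRD2 at chr6:32968344-32968623 (+ strand) and CCNT1 at chr12:48716678-48716957 (- strand). Capitals mark 6 motifs searched on either strand, which were TATAAA (the TATA box), CCAAT (the CCAAT box), GAANNTTC (the core of a heat shock element), TGANTCA (the AP-1 site), TGACGTCA (the cAMP response element) and TGACNNNGC (the core of an antioxidant response element).
HEXIM1: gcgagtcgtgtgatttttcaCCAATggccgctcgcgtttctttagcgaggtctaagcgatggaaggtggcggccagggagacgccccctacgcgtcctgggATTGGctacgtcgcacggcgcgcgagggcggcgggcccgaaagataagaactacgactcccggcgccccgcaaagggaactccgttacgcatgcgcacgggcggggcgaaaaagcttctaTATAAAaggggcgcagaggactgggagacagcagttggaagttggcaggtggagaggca
BRD2: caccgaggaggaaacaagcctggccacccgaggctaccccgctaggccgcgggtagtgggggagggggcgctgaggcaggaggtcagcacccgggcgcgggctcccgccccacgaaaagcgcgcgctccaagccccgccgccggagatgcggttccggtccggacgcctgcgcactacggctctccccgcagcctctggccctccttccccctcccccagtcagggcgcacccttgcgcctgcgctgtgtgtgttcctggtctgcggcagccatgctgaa
CCNT1: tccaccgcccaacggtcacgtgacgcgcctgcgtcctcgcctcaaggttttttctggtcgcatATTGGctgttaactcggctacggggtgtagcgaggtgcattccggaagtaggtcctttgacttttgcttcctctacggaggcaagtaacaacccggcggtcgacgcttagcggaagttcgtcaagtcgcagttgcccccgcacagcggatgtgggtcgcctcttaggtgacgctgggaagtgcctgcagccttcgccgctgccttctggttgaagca
The HEXIM1 window held TATAAA 29 bases before the start and CCAAT at 2 positions. The BRD2 window held none of the 6 motifs and the CCNT1 window 1 CCAAT. The cAMP motif was in the window of LARP7 and the antioxidant motif in that of HEXIM2, and the heat shock and AP-1 motifs were in none of the 8 members' windows. Of 35116 promoter windows of the same length, 11.2% held the TATA box, 33.6% the CCAAT box, 6.36% the heat shock motif, 7.35% the AP-1 motif, 1.85% the cAMP motif and 12.4% the antioxidant motif. A match is a stretch of letters, and a window without one says nothing about binding of the factor.

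Library depth ranged from 22508145 to 50834401 counts. The share of counts in protein-coding genes was 89.5% to 91.7% in WT and RQ control libraries, 94.7% to 95.9% in S181E and Y396E control libraries and 97.0% to 98.3% in arsenite libraries, and the part of this in the results was not tested. Y396E arsenite replicate 3 stood apart, with counts in 13897 genes against at least 20850 in the other 23. Of the colorectal epithelial markers, EPCAM (at least 305 CPM), KRT8, KRT18, KRT19, CDH1 and CDX2 were present in each library, while VIL1 was at or below 0.225 CPM. Among markers of other cells PTPRC, COL1A2, PECAM1 and ALB were at or below 0.269 CPM and COL1A1 was at 6.46 to 11.4 CPM. IGF2BP1 had 0.343 CPM in the parental control library and 11.9 ± 2.24 CPM in WT control cells, against 18.4 ± 1.54 for S181E, 16.3 ± 1.16 for Y396E and 14.2 ± 1.88 for RQ control cells (SD, n = 3), so the transgene RNA also differed between populations. In arsenite cells it had 28.8 ± 1.13 CPM for WT, against 46.5 ± 0.85 for RQ, 42.7 ± 0.68 for S181E and 42.7 ± 1.25 for Y396E, so it was higher in arsenite than in control in each population, and its part in the results was not tested.

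The inhibitors of P-TEFb showed the largest arsenite differences of the 8 members (HEXIM1 in each population, with HEXIM2 next). HEXIM1 (ENSG00000186834.4, chr17:45148475-45152099 in hg38, + strand) had 100.4, 113.9 and 105.3 CPM in WT control cells and 339.5, 343.6 and 345.7 CPM in WT arsenite cells. CPM values carry edgeR's TMM scaling and compare libraries for 1 gene, not genes with each other. The 12 control libraries lay between 100.4 and 131.9 CPM and the 12 arsenite libraries between 339.5 and 392.2, with no overlap in any population. Such separation was usual, since 86.2% (WT), 86.2% (RQ), 84.2% (S181E) and 73% (Y396E) of all tested genes had it. On the log2 scale the arsenite difference was 1.69 ± 0.04 (SE) in WT cells, or 3.22-fold. It was 1.74 ± 0.04 for RQ, 1.65 ± 0.04 for S181E and 1.53 ± 0.04 for Y396E. It ranked 228 from the top of 9099 genes in WT. The parental control library had 126.7 CPM and the parental arsenite library 340.2 CPM.

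HEXIM2 (ENSG00000168517.11, chr17:45160700-45170040, + strand), the paralog that can take the place of HEXIM1 on 7SK, lies next to it on chromosome 17. The WT control libraries had 5.84, 7.07 and 6.29 CPM and the WT arsenite libraries 13.2, 14.3 and 15.4 CPM, from 172 to 193 and 345 to 592 counts. Control libraries of all populations lay between 5.35 and 7.43 CPM and arsenite libraries between 13.2 and 17.1 CPM. The log2 difference was 1.17 ± 0.10 in WT cells and 1.18 ± 0.10 for RQ, 1.34 ± 0.10 for S181E and 1.24 ± 0.10 for Y396E. On the opposite strand other annotated genes covered 75.4% of its exon bases, and counting used the strand of the reads.

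**Figure D1:**
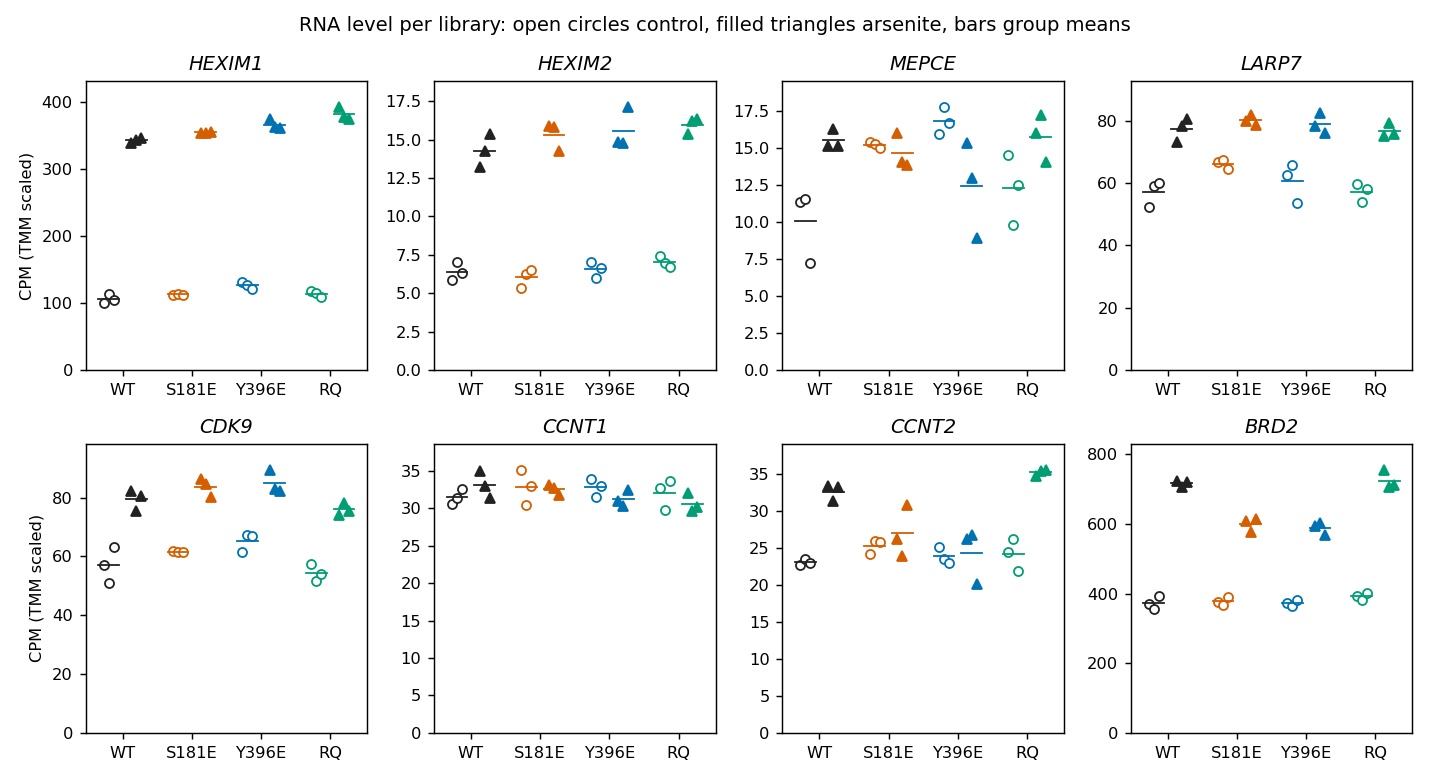
RNA level of each member in CPM (TMM scaled, linear axes from 0) in the 24 libraries, by IGF2BP1 population. Open circles are control and filled triangles arsenite libraries, and bars are means of 3: HEXIM1 libraries separate completely by treatment, while CCNT1 libraries stay between 29.6 and 35.1 CPM.

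BRD2 (ENSG00000204256.14, chr6:32968594-32981505, + strand) had the highest level per length of the members in WT cells. Its values were 371.0, 356.4 and 393.2 CPM in the WT control libraries and 723.9, 706.5 and 719.7 CPM in the WT arsenite libraries. Arsenite libraries of S181E had 609.5, 575.9 and 614.5 CPM, those of Y396E 593.6, 603.8 and 568.3 CPM and those of RQ 754.9, 705.6 and 710.8 CPM. The arsenite libraries of S181E and Y396E thus all lay below those of WT and RQ, whereas the control libraries of the 4 populations overlapped, between 356.4 and 402.3 CPM. In arsenite 53.8% of all tested genes in S181E and 44.6% in Y396E did not overlap WT. The log2 difference was 0.94 ± 0.04 in WT cells and 0.88 ± 0.04 for RQ, against 0.67 ± 0.04 for S181E and 0.66 ± 0.04 for Y396E.

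Of the kinase subunits, CDK9 (ENSG00000136807.14, chr9:127786034-127790792, + strand) had 56.9, 51.1 and 63.1 CPM in WT control and 82.4, 75.5 and 80.6 CPM in WT arsenite libraries, a log2 difference of 0.48 ± 0.06. It was 0.48 for RQ, 0.44 for S181E and 0.38 for Y396E, and arsenite and control libraries did not overlap in any, as for most tested genes. The cyclins differed from each other. CCNT1 (ENSG00000129315.12, chr12:48688458-48716998, - strand) had log2 differences between -0.07 and 0.07 with SE of 0.07, and its groups overlapped in each population.

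CCNT2 (ENSG00000082258.13, chr2:134918822-134959342, + strand) had 22.7, 23.5 and 23.0 CPM in WT control and 33.4, 31.3 and 33.2 CPM in WT arsenite libraries. In RQ arsenite it had 34.8, 35.4 and 35.6 CPM, all above the RQ control libraries, whose highest value was 26.3 CPM. In S181E arsenite the values were 26.16, 23.95 and 30.81 CPM and in Y396E arsenite 26.24, 26.76 and 20.1 CPM, and both overlapped their own controls. The log2 differences were 0.50 ± 0.09 in WT and 0.54 ± 0.09 in RQ cells, but 0.10 ± 0.09 for S181E and 0.03 ± 0.09 for Y396E. The 20.1 CPM were those of the library that stood apart, without which the Y396E difference was 0.17 ± 0.08.

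The proteins that bind 7SK also differed from each other. LARP7 (ENSG00000174720.18, chr4:112637120-112657592, + strand) had 52.46, 58.91 and 60.02 CPM in WT control and 73.32, 78.28 and 80.44 CPM in WT arsenite libraries, and a log2 difference of 0.44 ± 0.06. It was 0.42 ± 0.06 for RQ, 0.28 ± 0.06 for S181E and 0.38 ± 0.06 for Y396E. MEPCE (ENSG00000146834.15, chr7:100428322-100434126, + strand) had 11.35, 11.54 and 7.204 CPM in WT control libraries, against 15.37, 15.25 and 14.97 CPM for S181E, 15.92, 17.72 and 16.68 CPM for Y396E and 14.5, 9.783 and 12.49 CPM for RQ control libraries. The arsenite libraries had 15.12, 16.25 and 15.1 CPM for WT, 16.0, 14.04 and 13.84 CPM for S181E, 15.34, 12.95 and 8.878 CPM for Y396E and 15.96, 17.18 and 14.03 CPM for RQ. All WT control libraries thus lay below those of S181E and Y396E, whereas in arsenite the WT libraries overlapped those of each mutant. In control 58.6% of all tested genes in S181E and 53.7% in Y396E did not overlap WT. Its log2 arsenite difference was 0.63 ± 0.17 in WT cells and 0.35 ± 0.16 for RQ, against -0.06 ± 0.16 for S181E and -0.44 ± 0.16 for Y396E. Without Y396E arsenite replicate 3 the Y396E value was -0.23 ± 0.13.

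MEPCE counts are uncertain. On the same strand 61.3% of its exon bases are shared with a readthrough gene (ENSG00000289690), which had 0 or 1 count per library, and reads that fall on both genes were not counted, so the values come from the other 38.7% of its bases. The RNA of the complex, RN7SK (chr6:52995621-52995948, + strand), was listed at 0 in all 26 libraries. A second entry of the same RNA (ENSG00000202198) covers 100% of its bases and was also at 0, so neither count measures the RNA, which moreover has no poly(A) tail.

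Across the 32 pairs of a member and a population, 24 arsenite differences were above 1.2-fold, 1 was lower by more than 1.2-fold (MEPCE in Y396E) and 7 lay within these limits. Of 8 members 7 were higher by more than 1.2-fold in WT and RQ cells each and 5 with either glutamate mutant, and of all tested genes 36.6% (WT), 37.5% (RQ), 32.5% (S181E) and 33.2% (Y396E) were. With an adjusted p under 0.05 required as well, and either direction counted, the share of all tested genes was 72.2% (WT), 72.9% (RQ), 65.3% (S181E) and 65.8% (Y396E). The choice of members used these differences, so nothing follows from the counts. Without Y396E arsenite replicate 3, the library that stood apart, the Y396E differences were 1.56 for HEXIM1, 1.19 for HEXIM2, 0.71 for BRD2, 0.42 for CDK9, 0.435 for LARP7, 0.17 for CCNT2, -0.08 for CCNT1 and -0.23 for MEPCE. The only lower difference in the count, that of MEPCE, was then within the limit of 0.263. In the parental pair, without replicates, the ratio of arsenite to control was 2.69 for HEXIM1, 2.06 for HEXIM2, 1.98 for BRD2, 1.41 for CCNT2, 1.39 for LARP7, 1.31 for CDK9, 1.02 for CCNT1 and 0.983 for MEPCE. With libraries scaled by their totals alone the median arsenite change of all genes was 0.144 (log2) in WT and 0.155 in RQ, against -0.01 in both with TMM. With that scaling CCNT1 was at 0.23 (WT), 0.09 (RQ) and 0.03 (S181E), so its direction in RQ and S181E depended on the scaling.

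**Figure D2:**
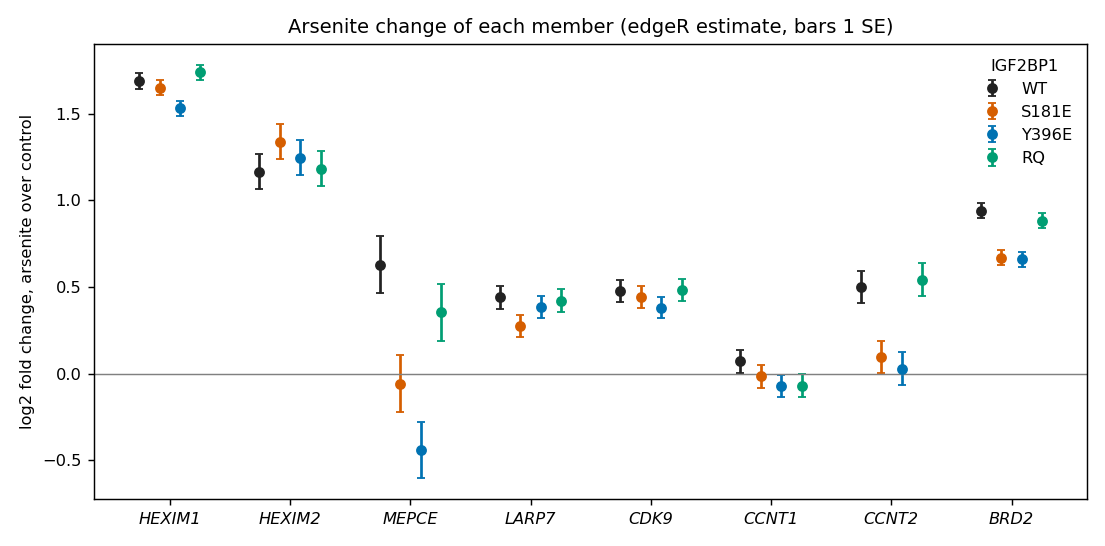
Log2 fold change of each member in arsenite over control (edgeR estimate, bars 1 SE), by IGF2BP1 population. HEXIM1 lies between 1.53 and 1.74 in all 4, and the populations lie farthest apart for MEPCE, from -0.44 to 0.63.

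Levels of different genes were compared per exon length within libraries, in TPM (the count of each gene divided by its exon length and scaled to a common total). In WT control cells the order was BRD2 (94.2 ± 13.2 TPM), HEXIM1 (43.2 ± 2.67), CDK9 (34.1 ± 6.63), LARP7 (24.4 ± 2.87), CCNT1 (6.57 ± 0.73), HEXIM2 (5.58 ± 0.37), CCNT2 (4.91 ± 0.40) and MEPCE (4.34 ± 0.85). Some neighbours in this order were not separated by the spread of 3 libraries, since CDK9 (27.3 to 40.5 TPM) overlapped LARP7 (22.6 to 27.7 TPM), and CCNT1, HEXIM2, CCNT2 and MEPCE each overlapped the next. Within each WT control library CDK9 was above LARP7, CCNT1 above HEXIM2 and HEXIM2 above CCNT2. MEPCE was above CCNT2 in replicates 1 (5.067 against 4.945 TPM) and 2 (4.537 against 4.5 TPM) and below it in replicate 3. Counted over its unshared exon bases alone, MEPCE was at 11.2 TPM. The HEXIM1 level was 1.29 ± 0.21 times that of CDK9 in WT control and 2.96 ± 0.15 times in WT arsenite cells. In all 12 control libraries of the 4 populations this ratio lay between 1.14 and 1.53, and in all 12 arsenite libraries between 2.81 and 3.62. The cyclins together had less RNA per length than CDK9, at a ratio of 0.289 to 0.384 in control and 0.226 to 0.320 in arsenite libraries. CCNT2 RNA was 0.749 ± 0.02 times that of CCNT1 in WT control cells and 1.01 ± 0.06 times in WT arsenite cells, against 0.850 ± 0.13 in S181E and 0.801 ± 0.15 in Y396E arsenite cells. The BRD2 level per length was 10.6 ± 0.55 times that of its paralog BRD3 in WT control and 21.3 ± 1.27 times in WT arsenite cells.

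**Figure D3:**
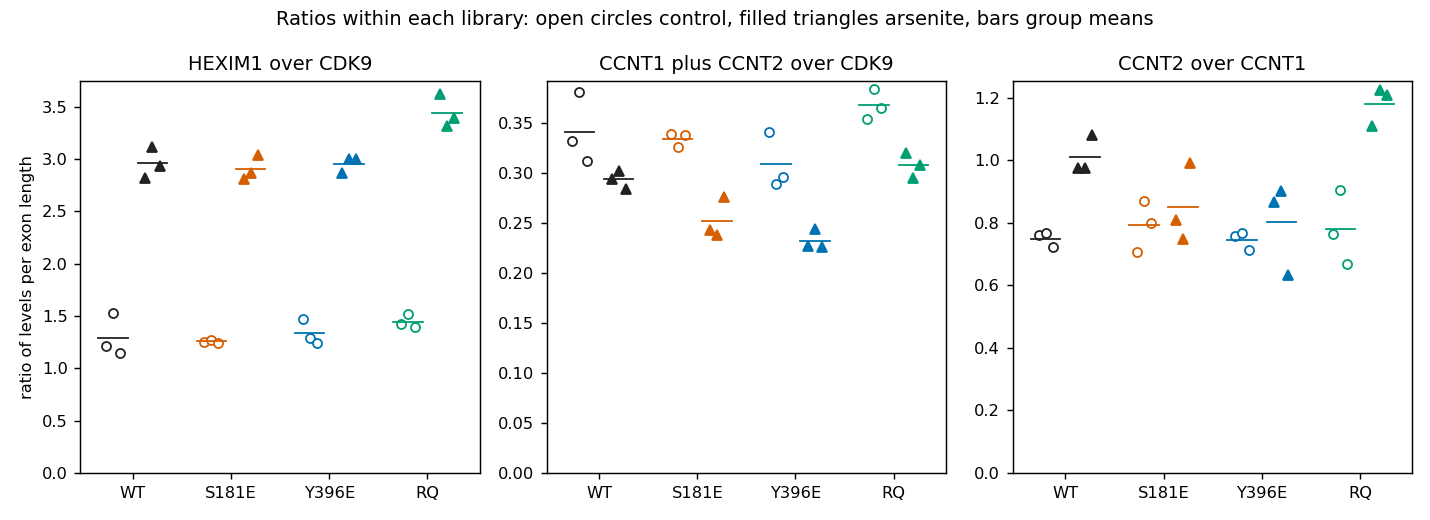
Ratios of levels per exon length within each of the 24 libraries (linear axes from 0), open circles control, filled triangles arsenite, bars means of 3. HEXIM1 over CDK9 lies between 1.14 and 1.53 in control and between 2.81 and 3.62 in arsenite libraries, and CCNT2 over CCNT1 is highest in RQ arsenite libraries (1.11 to 1.22).

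The comparison of mutants with WT in control cells asked whether the IGF2BP1 variant goes with another level of these genes before stress. It uses the WT control libraries, which enter the arsenite changes known when the members were chosen, so its p-values are not free of that choice. MEPCE was higher in S181E by 0.60 ± 0.17 (log2, adjusted p = 0.00466) and in Y396E by 0.74 ± 0.17 (adjusted p = 0.000882), by the quasi-likelihood test of edgeR, adjusted by Benjamini-Hochberg over all 9099 genes. A gene was called where the adjusted p was under 0.05 and the fold above 1.2, and these were the only calls in control cells among 24 member tests. In S181E 1 of 8 members was called against 31.1% of all tested genes, in Y396E 1 of 8 against 28.6% and in RQ 0 of 8 against 1.43%. Smaller differences passed the adjusted p but not the fold, among them HEXIM1 in Y396E (0.25 ± 0.04, adjusted p = 6.88e-05) and LARP7 in S181E (0.21 ± 0.07, adjusted p = 0.00902). With libraries scaled by their totals alone, where the median difference of all genes was 0.177 in S181E and 0.142 in Y396E against 0.02 and 0.01 with TMM, CDK9 was called in both mutants, HEXIM1 in Y396E and LARP7 and CCNT2 in S181E. HEXIM1 in Y396E was also called without WT control replicate 2 (0.30) or Y396E control replicate 3 (0.28), and CDK9 in Y396E without WT control replicate 3 (0.27). The 2 MEPCE calls held in each of the 32 other fits, with adjusted p up to 0.0442 in S181E and 0.00912 in Y396E. The lowest WT control value, 7.20 CPM, came from replicate 3. The single parental control library had 15.04 CPM of MEPCE, near the means of S181E (15.2) and Y396E (16.77) and above that of WT (10.03).

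In arsenite the calls were of other members and in the other direction. This comparison uses the WT arsenite libraries, which enter the arsenite changes known when the members were chosen. Its p-values are thus not free of that choice. BRD2 was lower than WT in Y396E by 0.28 ± 0.04 on the log2 scale (-0.28, adjusted p = 1.32e-05), and in S181E the difference was -0.256 ± 0.04 (adjusted p = 6.84e-05), smaller in size than the fold limit of 0.263 and so not called. CCNT2 was lower in Y396E (-0.42 ± 0.09, adjusted p = 0.00112) and in S181E (-0.27 ± 0.09, adjusted p = 0.0396), all from edgeR's quasi-likelihood test. In S181E 1 of 8 members was called, against 13.7% of all genes, in Y396E 2 of 8, against 21.7%, and in RQ 0 of 8, against 1.52%. Without Y396E arsenite replicate 3, the BRD2 difference in Y396E was -0.25 (adjusted p = 0.000185) and no longer passed the fold limit. That of CCNT2 was -0.28 (adjusted p = 0.00481) and remained past both limits. The CCNT2 call in S181E was lost without any of WT arsenite replicates 1, 2 or 3, S181E arsenite replicates 1 or 2, RQ arsenite replicate 3 or Y396E arsenite replicate 3, with differences of -0.30 to -0.19. It was also lost in 5 of 8 other settings, namely DESeq2 (-0.26), relative log expression factors (-0.26), library totals (-0.22), no filter (-0.26) and only the groups compared (-0.26). The CCNT2 call in Y396E was lost with only the groups compared (adjusted p = 0.0524) and the BRD2 call in Y396E with library totals (-0.26). MEPCE in Y396E, at -0.33 ± 0.16 (adjusted p = 0.114 by edgeR), was at -0.13 (adjusted p = 0.454) without Y396E arsenite replicate 3 and at -0.50 (adjusted p = 0.0213) without Y396E arsenite replicate 1, the only setting in which it was called.

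**Figure D4:**
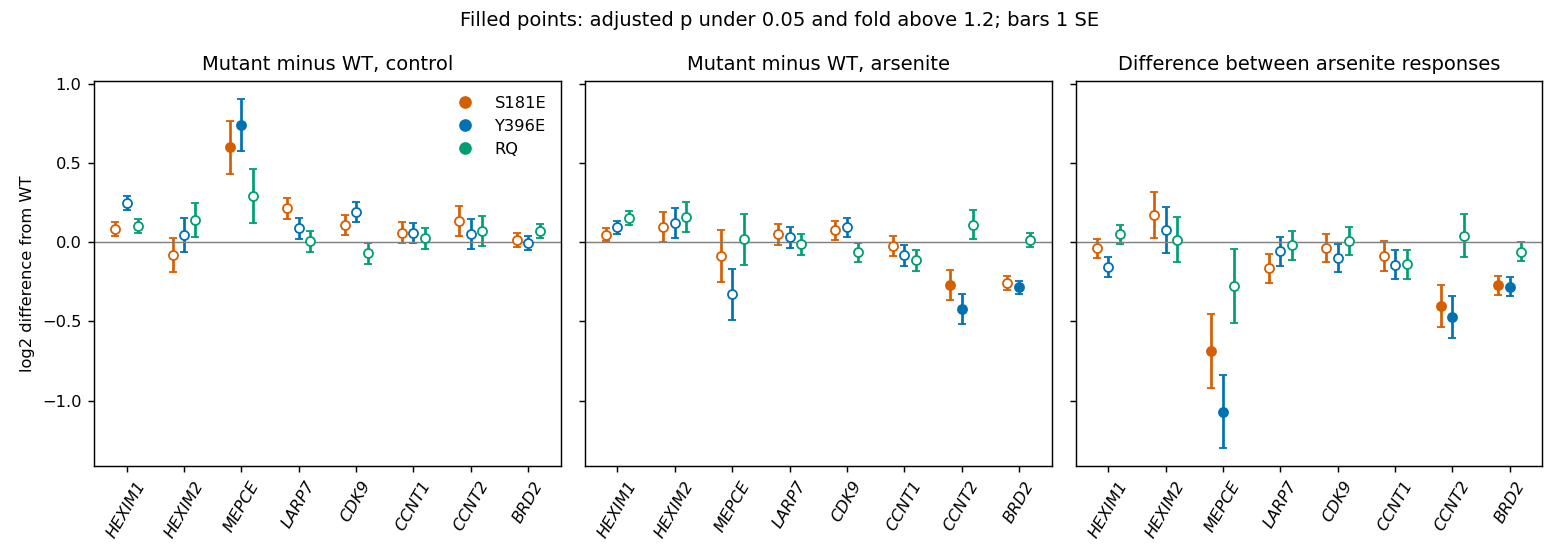
Log2 differences between each mutant and WT in control cells, in arsenite, and between their arsenite responses (edgeR estimates, bars 1 SE), with filled points for adjusted p under 0.05 and fold above 1.2. MEPCE is higher in S181E and Y396E control cells (0.60 and 0.74), and the responses of MEPCE, CCNT2 and BRD2 are lower than in WT in both.

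The difference between arsenite responses, a mutant's arsenite change minus that of WT, asks whether the populations responded unequally. It contains the WT arsenite change, which was known when the members were chosen, so its p-values are not free of that choice. BRD2, CCNT2 and MEPCE had lower responses than WT in both glutamate mutants. For BRD2 the difference was -0.27 ± 0.06 in S181E (adjusted p = 0.00416) and -0.28 ± 0.06 in Y396E (adjusted p = 0.00234), from the same edgeR quasi-likelihood fit. For CCNT2 it was -0.40 ± 0.13 (adjusted p = 0.0366) and -0.47 ± 0.13 (adjusted p = 0.0136). For MEPCE it was -0.69 ± 0.23 (adjusted p = 0.0402) and -1.07 ± 0.23 (adjusted p = 0.00245). Each response difference is the arsenite difference from WT minus the control difference, so it is not separate evidence from the calls in those comparisons. MEPCE differed from WT by 0.60 in S181E and 0.74 in Y396E control cells. In arsenite it differed by -0.09 and -0.33, neither of them called. Called were 3 of 8 members in each mutant, against 16.4% of all genes in S181E and 21.5% in Y396E, and both comparisons use the same WT libraries. For HEXIM1, the member with the largest arsenite change, the responses differed by -0.04 ± 0.06 in S181E and -0.16 ± 0.06 in Y396E (adjusted p = 0.0614), and for HEXIM2 by 0.17 ± 0.14 and 0.08 ± 0.14.

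With scaling by totals the median response difference of all genes was -0.142 in S181E and -0.123 in Y396E, against -0.03 and -0.02 with TMM, and the calls of these 3 members held. In other settings BRD2 in S181E lost the call with DESeq2 (-0.25), relative log expression factors (-0.25) and no filter (-0.26), CCNT2 in S181E with no filter (adjusted p = 0.0673), CCNT2 in Y396E with only the groups compared (adjusted p = 0.052) and MEPCE in S181E with both other filters. Most were lost without 1 or another library. The response difference of BRD2 in S181E was -0.26 to -0.24, just inside the fold limit, without any of WT control replicate 2, S181E control replicate 3, S181E arsenite replicates 2 or 3, RQ arsenite replicate 3 or Y396E arsenite replicate 3, and that in Y396E was -0.25 to -0.23 without WT control replicate 2, S181E arsenite replicate 3, RQ arsenite replicate 3 or Y396E arsenite replicate 3. CCNT2 in S181E lost the call without any of WT control replicates 1 or 2, WT arsenite replicates 1 or 3, S181E control replicates 2 or 3, S181E arsenite replicates 1 or 2 or RQ arsenite replicate 3 (adjusted p up to 0.111), while CCNT2 in Y396E kept it without any 1 library, at -0.32 without Y396E arsenite replicate 3. MEPCE in S181E lost it without any of WT control replicate 3 (-0.50, adjusted p = 0.0987), WT arsenite replicates 1, 2 or 3, S181E control replicates 1, 2 or 3, S181E arsenite replicates 2 or 3 or RQ arsenite replicate 3 (adjusted p up to 0.101). MEPCE in Y396E held in each of the 32 other fits, from -1.24 to -0.86, the last without Y396E arsenite replicate 3.

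For RQ no member was called in any comparison by edgeR's quasi-likelihood test, and in the response difference 0.22% of all genes were. Its differences from WT ranged from -0.07 to 0.29 in control cells and from -0.11 to 0.16 in arsenite. The response difference was 0.05 ± 0.06 for HEXIM1, -0.06 ± 0.06 for BRD2, 0.04 ± 0.13 for CCNT2 and -0.27 ± 0.23 for MEPCE, so for MEPCE the error was too large to exclude differences of the size seen in S181E. The 2 glutamate mutants were also compared with each other. No member was called, and neither was any other gene (0 of 9099, or 0%, in control and 0 of 9099, or 0%, in arsenite), though 289 and 1375 genes had an unadjusted p under 0.05 in edgeR and DESeq2 called 1 and 9. In arsenite MEPCE differed by -0.24 ± 0.16 (Y396E minus S181E), and by -0.06 ± 0.13 without Y396E arsenite replicate 3. In control HEXIM1 differed by 0.16 ± 0.04 (adjusted p = 1).

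To place the members in their pathway, 48 other elongation genes were listed by role, with earlier results of these data known. Of these, 42 passed the filter. SUPT4H1 and ELL3, which did not, share 66.0% and 88.6% of their exon bases with another gene on the same strand. In WT 29 of the 42 rose and 2 fell with arsenite, with a median log2 change of 0.50 against -0.01 for all tested genes, of which 72.2% were called, a share near that of the list (31 of 42). Among S181E cells 20 rose and 3 fell, with a median of 0.26, against 65.3% of all genes called. Among Y396E cells 19 rose and 2 fell, with a median of 0.235, against 65.8%, and for RQ 29 rose and 3 fell, with a median of 0.44, against 72.9%. By direction, 3303 of all tested genes rose and 3262 fell in WT, and 3378 and 3253 in RQ. For S181E these were 2913 and 3031, and for Y396E 2995 and 2996. PAF1 complex and elongation factors, which travel with the polymerase, had 12 of 15 genes that rose in WT, led by CTR9, a PAF1 subunit (2.28 ± 0.07), and POLR2A, the largest subunit of the polymerase itself (2.19 ± 0.07). Among 7SK-binding and P-TEFb release factors 7 of 8 rose, with JMJD6 at 1.95 ± 0.06 and the helicase DDX21 at 1.25 ± 0.06. Of the pausing factors 3 of 5 rose, with SUPT5H, a DSIF subunit, at 0.92 ± 0.08 and NELFA, a subunit of NELF, at 0.71 ± 0.05.

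Of the other kinases and cyclins 5 of 6 rose, among them CDK12 (0.75 ± 0.07) and CDK13 (0.59 ± 0.10), which phosphorylate the polymerase tail, and CDK7, the kinase of TFIIH, fell by 0.53 ± 0.05 on the log2 scale. Scaffolds and factors of the super elongation complex, which carries P-TEFb to genes, changed least by median (0.10), with AFF1 higher by 0.62 ± 0.13 and EAF1 lower by 0.46 ± 0.06 (-0.46), the only calls among 6. BRD3 was at -0.07 ± 0.07 and was not called. The adjusted p of each gene named here as risen or fallen was at most 0.000165 in edgeR's quasi-likelihood test. These genes were picked from the called ones of a list drawn up with earlier results known, so these p-values are a description only.

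**Figure D5:**
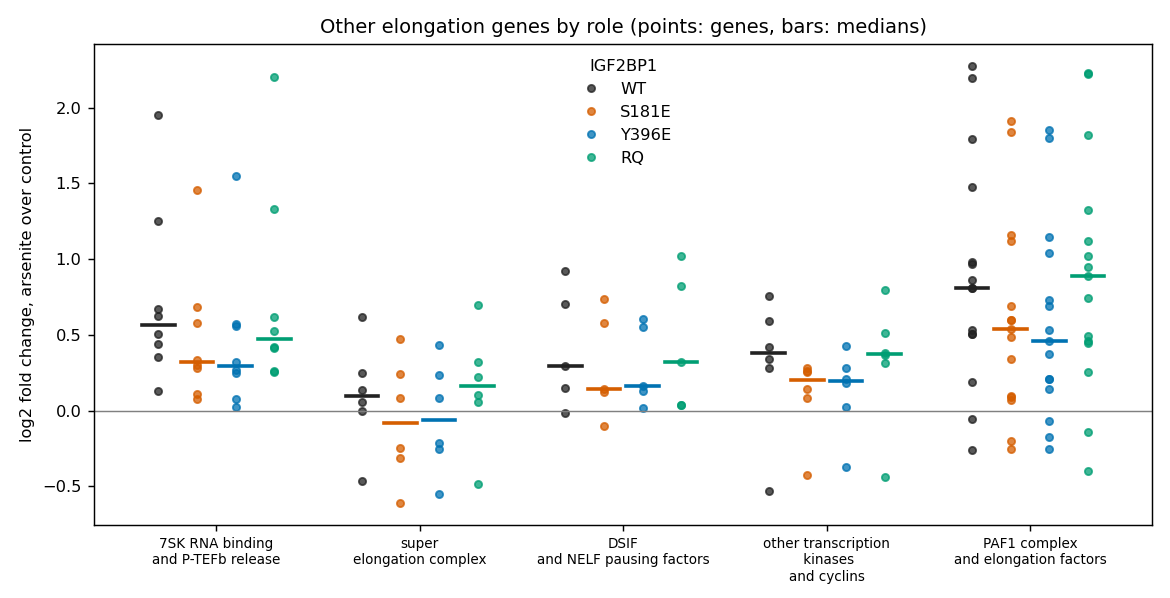
Log2 fold change in arsenite over control of elongation genes that are not members, by role and IGF2BP1 population (points genes, bars medians). The medians of S181E and Y396E lie below those of WT and RQ in each role shown, and CTR9 and POLR2A (2.28 and 2.19 in WT) are the highest of the PAF1 complex and elongation factors.

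In control cells 12 of the 42 were higher and 2 lower in S181E than in WT, and 13 were higher and 2 lower in Y396E. These 14 and 15 of 42 compare with 31.1% and 28.6% of all tested genes called, so the list does not stand apart in its share of calls in either direction. By direction, 1427 of all tested genes were higher and 1404 lower in S181E, and 1317 and 1289 in Y396E. The calls of the list were more often higher than those of all genes. The list was drawn up with earlier results of these data known, so nothing follows from the directions here or in the response differences. Both higher sets held DDX21 (0.56 ± 0.06 in S181E, 0.53 ± 0.06 in Y396E) and SUPT16H, a subunit of the histone chaperone FACT (0.64 ± 0.08 and 0.50 ± 0.08), and among the others were HNRNPA2B1, HNRNPR, PPM1G, CTR9, PAF1, POLR2A, SSRP1, HTATSF1 and CDK12. MNAT1 was higher in Y396E alone among the called, and its difference between the mutants was not called. CDK7 and TCEA1, which encodes the elongation factor TFIIS, were lower in both. TCEA1 had the largest difference from WT among the 42 tested genes in either treatment, -0.83 ± 0.06 in S181E and -0.91 ± 0.06 in Y396E control cells and -0.98 ± 0.06 and -1.11 ± 0.06 in arsenite. In arsenite 1 of 42 was higher (PPM1G) and 5 lower (TCEA1, CDK7, CDK13, AFF4, ELL2) in S181E, and 8 were lower in Y396E (TCEA1, CDK7, AFF1, AFF4, ELL2, CDC73, RTF1, SUPT6H), 6 and 8 of 42 against 13.7% and 21.7% of all tested genes. By direction, 484 of all tested genes were higher and 766 lower in S181E arsenite cells, and 889 and 1083 in Y396E arsenite cells. No gene of the list was called between RQ and WT in control or in arsenite by edgeR's quasi-likelihood test.

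The arsenite responses of 15 of the 42 genes were lower than in WT in S181E and those of 17 in Y396E, none was higher in either, and none was called in RQ. Of all tested genes 16.4%, 21.5% and 0.22% were called. By direction, 856 were lower and 635 higher in S181E, and 1014 and 940 in Y396E. The medians of the response differences were -0.20 in S181E and -0.27 in Y396E, against -0.03 and -0.02 for all genes. Among those called in both were DDX21 (-0.56 ± 0.09 and -0.68 ± 0.09), SUPT16H (-0.64 ± 0.11 and -0.65 ± 0.11), JMJD6 (-0.50 ± 0.08 and -0.41 ± 0.08), CDK12 (-0.50 ± 0.10 and -0.47 ± 0.10), HNRNPA2B1, SYNCRIP, CTR9, POLR2A, CDC73, HTATSF1, SSRP1 and AFF4. LEO1 and PAF1 were called in S181E, and HNRNPR, SUPT5H, IWS1 and SUPT6H in Y396E. The response difference contains the control difference with its sign reversed, and both use the WT control libraries, so they are not separate evidence. Without WT control replicate 2 the calls fell from 29 to 18 in control cells, over the 3 mutants, and from 32 to 20 in the response differences. Without Y396E arsenite replicate 3 they were 27 and 28, the calls between mutants and WT in arsenite were 14 with and without it, and the calls of arsenite changes over the 4 populations were 115 against 107.

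Genes whose level over the 24 libraries was most like that of a member were named by Pearson's r of log2 CPM, a description in which libraries share treatment and population. For HEXIM1 they were SF3B1 (0.994), BAG6 (0.994) and CENPJ (0.994), and for BRD2 the chaperone genes HSPH1 (0.993), DNAJB1 (0.992) and HSPA1B (0.991), the last nearly identical to HSPA1A and so uncertain in its counts. For HEXIM2 they were EVPL (0.986), HEXIM1 (0.985) and TAF1D (0.984), for CDK9 GPI (0.980), SEPTIN9 (0.980) and PKM (0.978), and for LARP7 DDX20 (0.956), SLC25A12 (0.954) and ORC3 (0.952). The closest to CCNT2 were WAC (0.905), BPTF (0.901) and BBC3 (0.897) and the closest to MEPCE were DOHH (0.854), CENPL (0.767) and USP16 (0.757). CCNT1 had no gene as close, with SHANK3 (0.580), UBN1 (0.569) and L3MBTL2 (0.541) the nearest.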

How the data were processed

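RNA came from lysates cleared for immunoprecipitation, was selected by poly(A) and sequenced as single reads with a strand-specific kit. The authors aligned reads to hg38 with STAR 2.7.11b, and deposited raw counts of reads per gene from featureCounts 2.0.6 with GENCODE 46 basic exons, per the file headers. Its command held no option to assign a read to more than 1 gene. Symbols came from GENCODE 44, which held 62541 of 63086 identifiers. The immunoprecipitated RNA was not analysed here.

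Protein-coding genes above 10 CPM in at least 12 of 24 libraries were fitted in edgeR 4.0.16 (R 4.3.3), with TMM factors of 0.866 to 1.084 on protein-coding totals, 1 mean per group and 16 residual degrees of freedom (biological coefficient of variation 0.0682). Contrasts were tested by the quasi-likelihood test with Benjamini-Hochberg adjustment over 9099 genes and called at an adjusted p under 0.05 and a fold above 1.2. SE is the log2 change divided by the square root of F. P-values measure the spread between dishes of 1 population each. The fit was tested on simulated counts with known changes, and no 2 libraries held identical counts. Other fits used DESeq2 1.42.0, relative log expression factors, library totals, other filters and fold limits, all gene types, only the groups compared, a replicate block and leaving out each library. The parental pair stayed out of the fit.

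Same-numbered WT and RQ libraries deviated together (r from 0.291 to 0.525 in control, 0.147 to 0.150 in arsenite, each over 0.1). This was treated as a possible pairing by replicate number, though the labels name no shared dish or batch. In no other comparison did every pair reach 0.1. A block by number changed no call of a member.

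The members and lists were chosen with earlier results of these data known. Named are the members, elongation genes called between populations, the 2 largest called arsenite changes per role in WT, RN7SK, IGF2BP1 and the 3 genes most like each member (prior count of 2). Some genes of the list are counted but not reported by name here. Promoter sequences and starts came from RefSeq, nearest to the gene start of the files.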

Additional observations from a re-analysis of the deposited data

Results flagged for a closer look

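By the test of the difference itself (edgeR's quasi-likelihood interaction test), the arsenite response was lower than in WT for 3 members in each glutamate mutant. The members were chosen with the WT arsenite changes known, and those changes enter this test. The log2 difference was -0.27 for BRD2, -0.40 for CCNT2 and -0.69 for MEPCE in S181E, and -0.28 for BRD2, -0.47 for CCNT2 and -1.07 for MEPCE in Y396E. Of all tested genes 16.4% were called in S181E and 21.5% in Y396E. Of 32 other fits, the S181E call was lost in 9 for BRD2, 10 for CCNT2 and 12 for MEPCE. For Y396E it was lost in 4, 1 and 0. The differences are not separate evidence from those in control cells and in arsenite. Groups of 3 libraries are too small for the test of a single outlying value.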

How the results depend on the processing

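Over 24 member tests each, the calls in control cells were 2, against 7 with scaling by totals, 5 without a fold limit and 2 to 3 when each library in turn was left out. Counts in this paragraph describe the settings and are not results about the members or the elongation genes. Shares of all tested genes are given above for the main setting, and those under other settings are not given. Scaling by totals also moved the median difference of all genes. The calls in arsenite were 3, against 1 with scaling by totals, 1 with only the groups compared, 0 at a fold above 1.5, and 1 to 4 when each library in turn was left out. The calls of response differences were 6, against 3 without a filter on counts, 2 at a fold above 1.5, and 2 to 6 with a library left out. For the elongation genes, arsenite calls over the 4 populations were 107 and 53 at a fold above 1.5. Calls in control cells were 29, against 58 with scaling by totals, 53 without a fold limit, 4 at a fold above 1.5 and 18 to 34 with a library left out. Calls in arsenite were 14, against 24 without a fold limit and 2 at a fold above 1.5, and response calls were 32, against 48 with scaling by totals, 3 at a fold above 1.5 and 20 to 36 with a library left out. The count of 24 member differences above 1.2-fold under arsenite was 23 or 24 with a library left out. With the replicate block, response calls of the elongation genes were 33 and no member call changed. By their labels, same-numbered samples of different groups share only a replicate number. The level of MEPCE per length in WT control cells was 4.34 TPM over all exon bases and 11.2 TPM over unshared ones, chosen after seeing the data. The causes were not tested. None of the member differences changed sign among those that were called. Coding lengths from RefSeq proteins were not run because no protein table was used here. At 148 to 769 counts, HEXIM2 is limited by depth more than HEXIM1 (2773 to 18859 counts).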
